A study of Mus musculus with 40 samples.

Results

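Peroxisomes are organelles with one membrane in which liver cells shorten very-long-chain and branched fatty acids and bile acid precursors, begin ether lipid synthesis, and break down hydrogen peroxide with catalase. Their enzymes are made in the cytosol, picked up by receptors of the Pex family and carried through the membrane, while other Pex proteins insert membrane proteins or elongate and divide existing peroxisomes. In rodent liver, many of these genes are known targets of PPARα, and PPARγ, the receptor that pioglitazone binds, recognises the same kind of DNA element together with RXR. The genes described here are 46 genes of peroxisome biogenesis and peroxisomal metabolism, named by symbol from a fixed list, out of 40594 genes counted in both genotypes. They comprise 33 genes of metabolism, called enzymes below although they include transporters and other membrane proteins, and 13 Pex genes. A filter of at least 1 CPM (counts scaled to the same total in every mouse) in at least 5 of 40 mice was passed by 45 of them, 32 enzymes and 13 Pex genes.

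Liver RNA was sequenced from 40 male mice aged 5 months, in 8 groups of 5. Wild-type (WT) mice were C57BL6/J, and knockout (KO) mice lacked PPARγ in liver cells that express Cre recombinase from the albumin promoter, which acts on loxP-flanked PPARγ alleles in hepatocytes and leaves the receptor in most other cells. Within each genotype 1 group ate a control diet, 1 the control diet with pioglitazone (Pio), 1 a high-fat diet (HFD) and 1 the HFD with Pio (HFD-Pio). The WT mice were not described as littermates with Cre or with loxP-flanked alleles, and the genotypes came in separate count tables, so that genotype cannot be told apart from breeding and processing, and levels were not tested between WT and KO. The comparisons ask what the drug does on each diet and what the diet does with and without the drug, within each genotype, and whether those effects differ between genotypes. No paired analysis was possible because no mouse number is shared between groups.

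Total counts ran from 15789401 to 49860981 in WT mice (median 23084681.5) and from 21542958 to 28334251 in KO mice. Levels below are CPM of each mouse without ribosomal RNA genes, with the library totals scaled by TMM factors, and group values are mean ± SD with n = 5 unless another n is given. The 12 hepatocyte markers were detected in every group, with a summed level of 111595 ± 22398 CPM in WT control mice and albumin as the most abundant of them in 39 of 40 mice. Pparg itself was low in every mouse, from 5.79 to 14.2 CPM in WT and from 3.01 to 9.90 CPM in KO mice. Counts over the whole gene include exons outside the deleted stretch and therefore do not measure the deletion.

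A few mice stood apart from their own groups across all genes, by a measure chosen after the data were seen. KO Pio mouse 13 differed by more than 1 log2 unit from the median of the other 4 mice of its group in 7140 of the 12942 genes tested, 55.2%. In the members, this mouse was the lowest of the 20 KO mice for 27 of 45 genes and the highest for 12. Its enzymes summed to 6651 CPM, against 9950.0 to 15401 CPM in the other 19 KO mice, while its Pex genes summed to 1629.6 CPM, against 500.1 to 746 CPM. Its hepatocyte markers summed to 36394 CPM, with albumin at 10663 CPM against 45240 to 97369 CPM in the other KO mice, and 0.0617% of its counts fell on ribosomal RNA genes, the lowest share of the 40 mice. WT control mouse 832 (1515 genes, 11.7%), WT HFD mouse 829 (1229 genes, 9.50%) and KO HFD mouse 9 (1003 genes, 7.75%) also stood apart, and the other 36 mice reached at most 382 genes (2.95%). Mouse 832 was the lowest of the 20 WT mice for 19 of 45 members and the highest for 2, and its enzymes summed to 7689 CPM, against 11000 to 12891 CPM in the other 4 WT control mice, so that it lowers the mean to which WT Pio and WT HFD mice are compared. Since all groups share 1 estimate of the spread between mice, mouse 13 bears on every test, and the members called in each comparison are counted with all 40 mice and without it.

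Catalase was the most abundant member of the WT control liver per length of transcript. Levels between genes are compared as CPM per kilobase of exon (CPM/kb). Cat, which splits hydrogen peroxide, had a level of 1099 ± 267 CPM/kb, followed by Phyh, the phytanoyl-CoA hydroxylase that opens α-oxidation, at 677 CPM/kb. Next came Scp2, whose longer product is the thiolase for branched chains, at 394 CPM/kb, urate oxidase (Uox) at 367 CPM/kb and the straight-chain thiolase Acaa1b at 185 CPM/kb. The 10 highest members were enzymes, and the median level of the 33 enzymes was 38.1 CPM/kb (range 0 to 1099). The 13 Pex genes had a median level of 9.19 CPM/kb, from 2.63 for Pex10, a ubiquitin ligase of the import machinery, to 43.4 for Pex16, which helps to place membrane proteins. Low levels were also found for Agps (0.852 CPM/kb) and Far1 (0.260 CPM/kb), both of ether lipid synthesis. The D-amino acid oxidase Dao was at 0 in 37 of the 40 mice and at most 0.0407 CPM in the others, and was not tested.

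**Figure D1:**
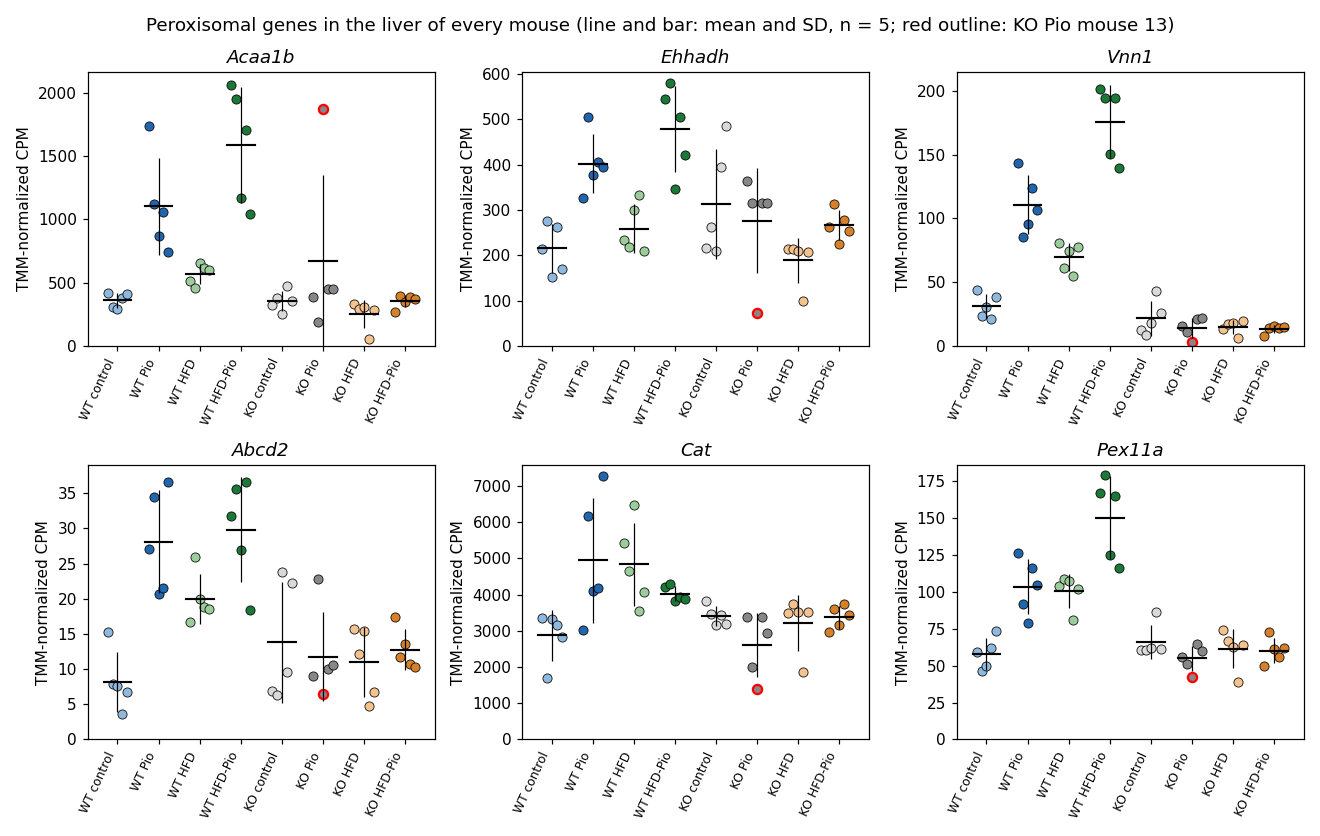
Level in TMM-normalised CPM (y axes) of Acaa1b, Ehhadh, Vnn1, Abcd2, Cat and Pex11a in every mouse (points) of the 8 groups (x axes), with a line at the mean and bars of 1 SD, and KO Pio mouse 13 outlined in red. Vnn1 lies at 85.3 to 143 CPM in WT Pio mice and at 21.6 to 43.9 CPM in WT control mice. It lies at 3.05 to 22.0 CPM in KO Pio mice, with mouse 13 the lowest. The KO control mice, which reach 43.2 CPM in mouse 4, overlap with them.

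Comparing WT Pio with WT control mice asks what the drug does to peroxisomal genes in a liver that has PPARγ, on the control diet. Pioglitazone raised a small set of members there that spans β-oxidation, transport, CoA turnover, catalase and peroxisome elongation. The liver was measured whole, so more or fewer cells of a type and more or less RNA per cell cannot be told apart. Genes were called where the adjusted p of edgeR (quasi-likelihood test, Benjamini-Hochberg over all genes tested) was 0.05 or below, here edgeR adjusted p. In this comparison, 6 of 45 members were called, all of them higher: Vnn1, Pex11a, Abcd2, Acaa1b, Cat and Pxmp2. Over all genes tested, 3.91% were called, 316 higher and 190 lower. The members had a median log2 difference of 0.07, with 33 of 45 above 0, against -0.02 over all genes. Of the 32 tested enzymes 5 were called, and of the 13 Pex genes 1. DESeq2 called 10 members higher and 0 lower, and limma 14 higher and 3 lower, where these tools called 6.43% and 23.9% of all genes. Without KO Pio mouse 13, 15 members were called higher and 1 lower, where 15.5% of all genes were called. The 5 mice of one group all lay above the 5 of the other for 8 members, where 7.53% of all genes showed no overlap in either direction.

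Among the genes of β-oxidation, Acaa1b had the largest difference. Acaa1b encodes a thiolase that releases acetyl-CoA in the last step of the cycle. Its levels in the WT control mice were 420.2, 310.5, 291, 383 and 414 CPM, a mean of 364 ± 59.6 CPM. With Pio they were 1734, 1120.3, 872, 1060.2 and 741 CPM, a mean of 1106 ± 382 CPM, so that every treated mouse lay above every control mouse. The difference was 1.60 ± 0.38 (SE) on the log2 scale, with an edgeR adjusted p = 0.0136 and 5 of 5 WT Pio mice above the WT control mean. Ehhadh, the bifunctional enzyme of straight-chain and dicarboxylic acids, measured 215, 275, 153, 262 and 171 CPM in the controls. The 5 treated mice were at 327, 506, 376, 407 and 395 CPM and did not overlap with the controls either. Its difference of 0.90 ± 0.27 (SE) on the log2 scale (edgeR adjusted p = 0.0538, 5 of 5 WT Pio mice above the WT control mean) missed the threshold, and it was called without mouse 13 (edgeR adjusted p = 0.00332, 0.91 on the log2 scale, 5 of 5 mice). Without mouse 13, edgeR also called Hsd17b4 (0.57 on the log2 scale, edgeR adjusted p = 0.00629, 5 of 5 WT Pio mice above the WT control mean), the bifunctional enzyme of branched and bile acid chains. The thiolase Acaa1a (0.76 on the log2 scale, edgeR adjusted p = 0.00493, 5 of 5 WT Pio mice above the WT control mean) was called there as well. Acaa1a and Acaa1b are close copies and the authors counted uniquely aligned reads, so reads the copies share count for neither. All 7 tested genes of this group, which also holds Acox2, Acox3 and Scp2, had log2 differences above 0, with a median of 0.56 and a range from 0.07 to 1.60.

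CoA turnover and transport held the 2 enzymes with the smallest p, Vnn1 and Abcd2. Vnn1 is a pantetheinase that frees pantothenic acid, the vitamin from which CoA is made. In the WT control mice its levels were 43.9, 23.3, 30.8, 21.6 and 38.1 CPM, and with Pio 143, 85.3, 95.3, 124 and 106 CPM. The groups did not overlap, and the means were 31.5 ± 9.53 and 111 ± 23.1 CPM. The difference was 1.81 ± 0.36 (SE) on the log2 scale, with an edgeR adjusted p = 0.00207 and 5 of 5 WT Pio mice above the WT control mean (edgeR adjusted p = 8.21e-05 without mouse 13). The CoA diphosphatase Nudt19 (-0.61 on the log2 scale, edgeR adjusted p = 0.00693, 5 of 5 WT Pio mice below the WT control mean) was lower without mouse 13, with an edgeR adjusted p = 0.0981 in all 40 mice. Abcd2 is a transporter of very-long-chain acyl-CoA. It lay at 15.3, 7.82, 7.55, 3.58 and 6.69 CPM in the controls and at 27.1, 34.5, 20.6, 21.5 and 36.6 CPM with Pio. Again no treated mouse overlapped with a control mouse, and the means were 8.18 ± 4.31 and 28.1 ± 7.31 CPM. The change was 1.78 ± 0.37 (SE) on the log2 scale, with an edgeR adjusted p = 0.00386 and 5 of 5 WT Pio mice above the WT control mean.

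The other transport and membrane genes moved less. Pxmp2, a pore-forming membrane protein, averaged 36.4 ± 10.9 CPM in the controls and 54.4 ± 11.8 CPM with Pio, and the groups overlapped. The change was 0.58 ± 0.17 (SE) on the log2 scale, with an edgeR adjusted p = 0.0452 and 5 of 5 WT Pio mice above the WT control mean, and it was called in 21 of the 40 fits that each left out 1 mouse, in which it ran from 0.42 to 0.68. The transporter Abcd3 (0.74 on the log2 scale, edgeR adjusted p = 0.0102, 5 of 5 WT Pio mice above the WT control mean) was called without mouse 13. Among oxidases and catalase, Cat measured 3352, 1685, 3336, 3167 and 2817 CPM in the control mice. With Pio it measured 3024, 6158, 4092, 4184 and 7281 CPM, where mouse 841 lay among the controls and the other 4 mice above all of them. The rise was 0.78 ± 0.23 (SE) on the log2 scale, with an edgeR adjusted p = 0.0433 and 5 of 5 WT Pio mice above the WT control mean. The call was lost in each fit without WT control mouse 831, 832, 834 or 835, WT Pio mouse 842 or 845, KO control mouse 2, KO HFD mouse 6, or KO HFD-Pio mouse 17 or 20, and over all 40 such fits the difference ran from 0.61 to 0.92. The log2 differences of Hao1 and Uox, the glycolate and urate oxidases, were -0.04 and 0.06.

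Among the Pex genes, Pex11a, which elongates peroxisomes before they divide, was the member called with all 40 mice. Its levels in the WT control mice were 59.2, 46.4, 49.4, 61.9 and 73.2 CPM, a mean of 58.0 ± 10.7 CPM. In the WT Pio mice they were 126, 91.5, 79.1, 116 and 104 CPM, a mean of 103 ± 18.9 CPM, and each lay above every control. The rise was 0.83 ± 0.16 (SE) on the log2 scale, with an edgeR adjusted p = 0.00207 and 5 of 5 WT Pio mice above the WT control mean. Its relative Pex11g had a log2 difference of 0.03. Of the 3 genes that assemble the membrane, 2 were called without mouse 13. These were Pex19 (0.46 on the log2 scale, edgeR adjusted p = 0.000831, 5 of 5 WT Pio mice above the WT control mean), the cytosolic chaperone of membrane proteins, and Pex3 (0.57 on the log2 scale, edgeR adjusted p = 0.00633, 5 of 5 WT Pio mice above the WT control mean), its docking partner. Their edgeR adjusted p values with all 40 mice were 0.187 and 0.143, with log2 differences of 0.45 (5 of 5 mice) and 0.56 (5 of 5 mice). None of the 8 genes of matrix protein import was called by edgeR with or without mouse 13, with a median log2 difference of 0.05. With or without it, 0 of 8 had an unadjusted p under 0.05 (17.9% of all genes, 29.3% without mouse 13). DESeq2 called 0 of the 8 and limma 1 (6.43% and 23.9% of all genes). The other 3 members called without mouse 13, all enzymes, had log2 differences from 0.44 to 0.74.

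Comparing WT HFD-Pio with WT HFD mice asks what the drug does in the liver of mice on a fat-rich diet. On this diet Pio raised Acaa1b and Vnn1 in WT liver and lowered Pxmp4. These were the 3 members called by edgeR of 45, 2 higher and 1 lower, where 1.08% of all genes were called (78 higher, 62 lower). The median log2 difference was 0.24 over the members, with 35 of 45 above 0, and -0.02 over all genes. All 3 were enzymes. Of the 13 Pex genes 0 were called by edgeR, 5 had an unadjusted p under 0.05 (15.6% of all genes), and DESeq2 called 1 and limma 4 (2.85% and 8.40% of all genes). Without mouse 13, 13 members were called higher and 1 lower, where 11.6% of all genes were called. The groups did not overlap for 11 members that were higher and 1 that was lower, where 7.12% of all genes showed no overlap.

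Acaa1b lay at 512, 463, 653, 616 and 604 CPM in the WT HFD mice. With Pio on the HFD it lay at 2061, 1946, 1170.5, 1703 and 1039.8 CPM, and the means of the groups, which did not overlap, were 569 ± 79.0 and 1584 ± 458 CPM. The rise was 1.48 ± 0.38 (SE) on the log2 scale, with an edgeR adjusted p = 0.0472 and 5 of 5 WT HFD-Pio mice above the WT HFD mean. Vnn1 measured 80.4, 61.1, 74.8, 54.7 and 77.3 CPM on the HFD and 201, 194, 150.3, 194 and 139 CPM with Pio. Every treated mouse was above every untreated one, and the rise was 1.34 ± 0.35 (SE) on the log2 scale, with an edgeR adjusted p = 0.0491 and 5 of 5 WT HFD-Pio mice above the WT HFD mean. Pxmp4, a peroxisomal membrane protein whose role is little known, measured 175, 231, 227, 236 and 187 CPM on the HFD and 152, 137, 142, 127 and 152 CPM with Pio. All 5 treated mice were below all 5 untreated mice, and it changed by -0.57 ± 0.15 (SE) on the log2 scale, with an edgeR adjusted p = 0.0434 and 5 of 5 WT HFD-Pio mice below the WT HFD mean. These calls were close to the threshold: of the 40 fits that each left out 1 mouse, Pxmp4 was called in 16, Acaa1b in 13 and Vnn1 in 11. Over those fits the log2 difference ran from -0.63 to -0.52 for Pxmp4, from 1.37 to 1.61 for Acaa1b and from 1.26 to 1.42 for Vnn1.

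Ehhadh and Pex11a showed separate groups on the HFD as well, without passing the test in all 40 mice. Ehhadh lay at 234, 219, 300.0, 332 and 209 CPM on the HFD and at 544, 579, 346, 506 and 422 CPM with Pio. Its log2 difference was 0.89 (edgeR adjusted p = 0.100, and 0.00643 without mouse 13, 5 of 5 mice). Pex11a measured 104, 109, 107, 80.8 and 102 CPM on the HFD and 167, 179, 125, 165 and 116 CPM with Pio. The log2 difference was 0.58 (edgeR adjusted p = 0.0677, and 0.0106 without mouse 13, 5 of 5 mice). Cat, which had risen with Pio on the control diet, measured 5417, 4645, 6482, 3557 and 4069 CPM on the HFD and 4198, 4286, 3832, 3931 and 3879 CPM with Pio. Those groups overlapped, with a log2 difference of -0.26 (edgeR adjusted p = 0.616, 5 of 5 mice below the WT HFD mean).

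Without mouse 13 the further calls on the HFD were all higher. Among the Pex genes, edgeR called Pex19 (0.42 on the log2 scale, edgeR adjusted p = 0.00451, 5 of 5 WT HFD-Pio mice above the WT HFD mean) and Pex11a. The import receptor Pex5 (0.53 on the log2 scale, edgeR adjusted p = 0.0275, 5 of 5 WT HFD-Pio mice above the WT HFD mean) was called there too. Also called was Pex13 (0.44 on the log2 scale, edgeR adjusted p = 0.0249, 5 of 5 WT HFD-Pio mice above the WT HFD mean), part of the docking complex. Among enzymes, Agps (0.44 on the log2 scale, edgeR adjusted p = 0.0342, 5 of 5 WT HFD-Pio mice above the WT HFD mean) makes the ether bond of plasmalogen precursors. The carrier Slc25a17 (0.46 on the log2 scale, edgeR adjusted p = 0.0160, 5 of 5 WT HFD-Pio mice above the WT HFD mean) brings cofactors such as CoA and FAD through the membrane. The remaining ones by rank of p were Acaa1a (0.64 on the log2 scale, edgeR adjusted p = 0.0234, 5 of 5 WT HFD-Pio mice above the WT HFD mean) and the dienoyl-CoA reductase Decr2 (0.56, edgeR adjusted p = 0.0298, 5 of 5 mice). Another 2 enzymes were called, with log2 differences of 0.44 and 0.60.

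Comparing WT HFD with WT control mice asks how the liver answers a fat-rich diet before any drug. The diet by itself raised Pex11a, Pxmp4 and Crat in WT mice without the drug. EdgeR called these 3 of 45 members in WT HFD against WT control mice and 0 lower, where 1.31% of all genes were called (77 higher, 93 lower). The median log2 difference was 0.24 over the members, with 36 of 45 above 0, and 0.00 over all genes. Of the 32 enzymes 2 were called, and of the 13 Pex genes 1. The WT control mice here are the same as in the comparison of Pio with the control diet, so the results are not independent of it. Without mouse 13, 10 members were called, all higher, where 6.56% of all genes were called. The groups did not overlap for 8 members, all higher, where 3.05% of all genes showed no overlap.

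For Pex11a the 5 WT HFD mice, at 80.8 to 109 CPM, lay above the 5 control mice at 46.4 to 73.2 CPM. The change was 0.79 ± 0.16 (SE) on the log2 scale, with an edgeR adjusted p = 0.00839 and 5 of 5 WT HFD mice above the WT control mean. Crat, the carnitine acetyltransferase that prepares acetyl units for export, measured 146, 60.8, 72.0, 83.6 and 69.2 CPM in the control mice and 145, 165, 156, 223 and 145 CPM on the HFD. Control mouse 831 lay among the HFD mice, and the other 4 control mice lay below all of them. Crat rose by 0.95 ± 0.23 (SE) on the log2 scale, with an edgeR adjusted p = 0.0230 and 5 of 5 WT HFD mice above the WT control mean. Pxmp4 measured 197, 81.8, 128, 145 and 119 CPM in the control mice, and control mouse 831 overlapped with the HFD mice, which lay at 175 to 236 CPM. Its change was 0.65 ± 0.15 (SE) on the log2 scale, with an edgeR adjusted p = 0.0153 and 5 of 5 WT HFD mice above the WT control mean. The call of Pxmp4 was lost without WT HFD mouse 828 or WT control mouse 832, and that of Crat without WT HFD mouse 828 or 829 or WT control mouse 832, 833 or 835. Over the 40 fits without 1 mouse the log2 difference ran from 0.51 to 0.81 for Pxmp4 and from 0.82 to 1.20 for Crat.

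The 7 members called on the HFD without mouse 13 alone were all enzymes. They included the carnitine octanoyltransferase Crot (0.80 on the log2 scale, edgeR adjusted p = 0.0123, 5 of 5 WT HFD mice above the WT control mean) and the isomerase of unsaturated chains Eci2 (0.85 on the log2 scale, edgeR adjusted p = 0.0169, 5 of 5 WT HFD mice above the WT control mean). Vnn1 had a log2 difference of 1.13 (edgeR adjusted p = 0.0165, 5 of 5 mice), and Abcd2 of 1.28 (edgeR adjusted p = 0.0283, 5 of 5 mice). Neither overlapped between the groups. Cat had a difference of 0.74 (edgeR adjusted p = 0.0226, 5 of 5 mice), Hsd17b4 of 0.49 (edgeR adjusted p = 0.0355, 5 of 5 mice) and Acaa1a of 0.59 (edgeR adjusted p = 0.0485, 5 of 5 mice). Members of ether lipid synthesis were not called with or without mouse 13, nor was the group of Phyh, Hacl1, Amacr and Acad11. Their log2 differences ran from -0.58 to 0.10 and from 0.08 to 0.38. Of the genes of either group, 0 had an unadjusted p under 0.05 in all 40 mice (13.2% of all genes). Without mouse 13 such a p was found for 1 of 3 genes of ether lipid synthesis and 2 of 4 of the other group (23.3% of all genes).

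Comparing WT HFD-Pio with WT Pio mice asks for the effect of the same diet under the drug. With Pio in both diets, the diet raised Crot, the enzyme that hands medium-chain products to carnitine so that they can leave for the mitochondria. Crot was the 1 of 45 members that edgeR called in WT HFD-Pio against WT Pio mice, where 1.22% of all genes were called (33 higher, 125 lower). The members had a median log2 difference of 0.27, with 39 of 45 above 0, against -0.01 over all genes. It measured 288, 303, 208, 237 and 201 CPM with Pio and 459, 529.8, 549, 483 and 544 CPM with Pio on the HFD. Every HFD-Pio mouse lay above every Pio mouse. Crot rose by 1.05 ± 0.25 (SE) on the log2 scale, with an edgeR adjusted p = 0.0229 and 5 of 5 WT HFD-Pio mice above the WT Pio mean. The call was lost without WT HFD-Pio mouse 838 or 840 or WT Pio mouse 843, 844 or 845, and over the 40 fits without 1 mouse the difference ran from 0.98 to 1.13. Of the 13 Pex genes 0 were called by edgeR, 3 had an unadjusted p under 0.05 (14.2% of all genes), and DESeq2 called 1 and limma 8 (3.01% and 22.7% of all genes). Without mouse 13, 7 members were called, all higher, where 8.68% of all genes were called. The groups did not overlap for 7 members, where 6.49% of all genes showed no overlap.

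The calls gained without mouse 13 in that comparison were 4 enzymes and 2 Pex genes. The isomerases of unsaturated chains were Ech1 (0.75 on the log2 scale, edgeR adjusted p = 0.00771, 5 of 5 WT HFD-Pio mice above the WT Pio mean) and Eci2 (0.67, edgeR adjusted p = 0.0483, 5 of 5 mice). The other enzymes were the racemase Amacr (0.46, edgeR adjusted p = 0.0262, 5 of 5 mice) and the oxidase Acox2 (0.35, edgeR adjusted p = 0.0473, 5 of 5 mice). The Pex genes were Pex11a (0.53, edgeR adjusted p = 0.0245, 5 of 5 mice) and Pex13 (0.54, edgeR adjusted p = 0.00812, 5 of 5 mice). Pex13 overlaps the gene Pus10 in the annotation, as 27 of the 46 members overlap some other gene, and the strand of the counting is not stated.

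Summed over the enzymes, WT control mice had 11172 ± 2066 CPM, WT Pio mice 15064 ± 1063 CPM, WT HFD mice 14489 ± 1704 CPM and WT HFD-Pio mice 15993 ± 1278 CPM. The sums are governed by Cat, Uox, Scp2 and Phyh, the members with the most counts. For the Pex genes the sums were 691 ± 84.4 CPM in WT control mice, 795 ± 170 CPM with Pio, 822 ± 96.4 CPM on the HFD and 995 ± 65.5 CPM with both. Each HFD-Pio mouse lay above each WT control mouse in both sums, while the Pio and control groups overlapped in the Pex sum. In KO mice the enzyme sums were 14623 ± 976 CPM on the control diet, 11662 ± 3325 CPM with Pio, 13555 ± 1979 CPM on the HFD and 14320 ± 1018 CPM with both. The KO Pex sums were 697 ± 32.8, 848 ± 440, 676 ± 102 and 692 ± 34.9 CPM in the same order, and among KO Pio mice mouse 13 had the lowest enzyme sum and the highest Pex sum.

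**Figure D2:**
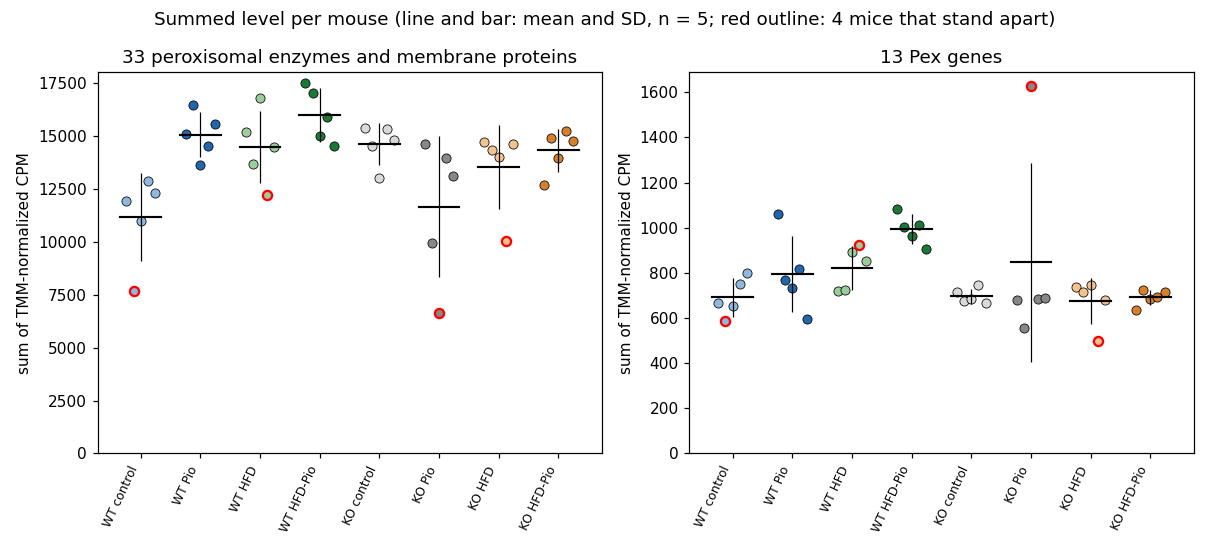
Summed level in CPM (y axes) of the tested enzymes and of the 13 Pex genes in every mouse (points) of the 8 groups (x axes), with the 4 mice that stand apart outlined in red. Mouse 13 of the KO Pio group has 6651 CPM of enzymes and 1629.6 CPM of Pex genes, below and above the other 19 KO mice.

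The KO mice show what Pio does when hepatocytes lack the receptor, while other cells of the liver and body can still respond to it. In KO mice on the control diet edgeR called no member higher with Pio, and the 2 enzymes that it called lower, Phyh and Ech1, were not called without mouse 13. EdgeR called 2 of 45 members lower and 0 higher in KO Pio against KO control mice, where 9.01% of all genes were called (1003 higher, 163 lower). Without mouse 13 edgeR called 0 members, with 5 at an unadjusted p under 0.05 (10.6% of all genes), where 0.510% of all genes were called. With all 40 mice 12 members had an unadjusted p under 0.05 (27.6% of all genes), DESeq2 called 1 member higher and 3 lower, and limma 2 higher and 3 lower (11.3% and 9.40% of all genes). The median log2 difference over the members was -0.16, and -0.08 without mouse 13, against 0.03 over all genes in the 40 mice.

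Phyh measured 1916, 1528, 1645, 1991 and 1828 CPM in KO control mice and 1335, 799, 329.8, 1338 and 1204 CPM in KO Pio mice, where mouse 13 had the lowest value of the 20 KO mice. The groups did not overlap with or without that mouse. Phyh changed by -0.83 ± 0.23 (SE) on the log2 scale, with an edgeR adjusted p = 0.0274 and 5 of 5 KO Pio mice below the KO control mean, and by -0.59 (edgeR adjusted p = 0.122, 4 of 4 KO Pio mice below the KO control mean) without mouse 13. Ech1 measured 199.5, 185, 257, 317 and 244 CPM in KO control mice and 158, 135, 64.4, 191 and 176 CPM with Pio, and the groups overlapped. It changed by -0.73 ± 0.22 (SE) on the log2 scale, with an edgeR adjusted p = 0.0342 and 5 of 5 KO Pio mice below the KO control mean, and by -0.53 (edgeR adjusted p = 0.223, 4 of 4 KO Pio mice below the KO control mean) without mouse 13. The call of Phyh was also lost without KO control mouse 1 or 4, and that of Ech1 without KO control mouse 1, 3, 4 or 5, with log2 differences from -0.96 to -0.59 and from -0.85 to -0.53 over the 40 fits.

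The genes that Pio raised in WT liver were not called in KO liver. Vnn1 measured 12.3, 8.72, 18.0, 43.2 and 26.3 CPM in KO control mice and 15.8, 11.2, 3.05, 20.9 and 22.0 CPM in KO Pio mice. Abcd2 averaged 13.8 ± 8.56 and 11.8 ± 6.36 CPM, and Cat 3414 ± 275 and 2617 ± 886 CPM. These groups overlapped. For Acaa1b the KO Pio mice were at 388, 194, 1873, 449 and 454 CPM, with mouse 13 far above the other 4, and the KO control mice at 324, 383, 256, 473 and 361 CPM. The log2 difference was 0.90 in all 40 mice and 0.07 without mouse 13.

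Of the Pex genes edgeR called 0 in KO Pio against KO control mice, with 3 at an unadjusted p under 0.05 (27.6% of all genes). DESeq2 called 1 of them and limma 0 (11.3% and 9.40% of all genes). Pex11a measured 60.4, 60.7, 61.9, 86.4 and 61.1 CPM in KO control mice and 56.1, 51.3, 42.0, 64.6 and 60.0 CPM with Pio. Mouse 13 was the highest of the 20 KO mice for 7 of the 8 import genes and the lowest for Pex2, which measured 31.5, 27.4, 19.1, 33.7 and 29.6 CPM over the KO Pio mice. Pex6, an ATPase that recycles the import receptor, measured 97.3, 82.6, 646, 94.6 and 100.2 CPM. Pex7, the receptor for the second kind of import signal, measured 46.0, 36.0, 189, 45.1 and 45.6 CPM. Pex14, at the docking site, measured 35.1, 31.3, 168, 32.1 and 34.9 CPM, and in each of the 3 genes mouse 13 had the high value. Without that mouse the median log2 difference of the 8 import genes was -0.11, against 0.49 with it.

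The other comparisons among KO mice gave no called member. In KO HFD-Pio against KO HFD mice edgeR called 0 of 45 members, with 0 at an unadjusted p under 0.05 (1.04% of all genes) and 0 called by DESeq2 or limma (0.0633% and 0% of all genes), where 0.0155% of all genes were called. Without mouse 13 the count was 0 with 1 unadjusted (1.71% of all genes), where 0% of all genes were called. That member was Ehhadh, singled out after its values were seen, with 213, 214, 209, 100.4 and 208 CPM on the HFD and 262, 313, 225, 278 and 254 CPM with Pio, groups that did not overlap. The members had a median log2 difference of 0.04, and the 13 Pex genes ran from -0.08 to 0.17. For KO HFD against KO control mice edgeR called 0 members, with 1 at an unadjusted p under 0.05 (4.60% of all genes) and 0 called by DESeq2 or limma (0.419% and 4.19% of all genes), where 0.185% of all genes were called. Without mouse 13 the count was 0 with 2 unadjusted (8.11% of all genes), where 0.386% of all genes were called. The median log2 difference there was -0.04, and the 13 Pex genes ran from -0.15 to 0.05. In KO HFD-Pio against KO Pio mice edgeR called 0 members, with 11 at an unadjusted p under 0.05 (24.0% of all genes), while DESeq2 called 1 lower and limma 0 (8.01% and 2.39% of all genes), where 4.96% of all genes were called. The members had a median log2 difference of 0.13, the enzymes of 0.17 and the Pex genes of -0.29, and without mouse 13 these were 0.07, 0.05 and 0.08, so that the sign for the Pex genes turned. Leaving out mouse 13 gave 0 members, with 3 unadjusted (5.32% of all genes), where 0.0927% of all genes were called.

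Whether the drug acts differently in the genotypes was tested as a difference of effects. On the control diet, edgeR called 6 of 45 members with a smaller Pio effect in KO than in WT mice and 0 with a larger one, where 7.87% of all genes were called. Without mouse 13 the count was 10, where 5.70% of all genes were called. The difference of effects, KO minus WT, was -2.39 ± 0.50 (SE) on the log2 scale for Vnn1 (edgeR adjusted p = 0.00487), where 5 of 5 WT Pio mice were above the WT control mean and 4 of 5 KO Pio mice below the KO control mean. It was -1.10 ± 0.23 for Pex11a (edgeR adjusted p = 0.00498), with 5 of 5 WT Pio mice above their control mean and 5 of 5 KO Pio mice below the KO control mean. For Abcd2 it was -2.01 ± 0.51 (edgeR adjusted p = 0.0164), with 5 of 5 and 4 of 5 KO Pio mice below the KO control mean. Hsd17b4 had a difference of -0.94 ± 0.24 (edgeR adjusted p = 0.0172), with 5 of 5 and 5 of 5 KO Pio mice below the KO control mean. Cat had -1.17 ± 0.32 (edgeR adjusted p = 0.0256), with 5 of 5 and 5 of 5 KO Pio mice below the KO control mean, and the call was lost without WT Pio mouse 845. Pxmp2 had -0.86 ± 0.24 (edgeR adjusted p = 0.0260), with 5 of 5 and 5 of 5 KO Pio mice below the KO control mean, and the call was lost without KO control mouse 3. So 5 enzymes and 1 Pex gene, with roles in CoA turnover, transport, β-oxidation, hydrogen peroxide breakdown and elongation, had a Pio effect that differed with genotype on this diet.

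Without mouse 13 the 6 stayed called, at log2 differences from -2.12 for Vnn1 to -0.80 for Hsd17b4, and 4 members were added. Acaa1b had a difference of -1.55 (edgeR adjusted p = 0.0215), with 5 of 5 WT Pio mice above their control mean and 3 of 4 KO Pio mice above the KO control mean. Acaa1a had -1.06 (edgeR adjusted p = 0.0164), with 5 of 5 and 4 of 4 KO Pio mice below the KO control mean. The differences of these thiolases were -0.70 and -0.38 with mouse 13, in which both genes were high. Acad11, an acyl-CoA dehydrogenase, had -0.66 (edgeR adjusted p = 0.0457), with 5 of 5 and 3 of 4 KO Pio mice below the KO control mean. For Pex19 it was -0.49 (edgeR adjusted p = 0.0231), with 5 of 5 and 1 of 4 KO Pio mice below the KO control mean.

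On the HFD the Pio effects of WT and KO mice gave 0 called members by edgeR, with 4 at an unadjusted p under 0.05 (5.93% of all genes), while DESeq2 called 0 and limma 6 lower in KO (0.206% and 2.74% of all genes), where 0.0927% of all genes were called. Without mouse 13 it was 0 with 12 unadjusted (14.6% of all genes), where 0.162% of all genes were called. Between the diets, the Pio effects within WT mice gave 0 called members, with 6 unadjusted (12.1% of all genes), 0 by DESeq2 and 5 by limma (1.07% and 10.6% of all genes), where 0.0773% of all genes were called. Without mouse 13 edgeR called 2 there, where 5.16% of all genes were called. Cat had a difference of -1.05 on the log2 scale, HFD minus control diet (edgeR adjusted p = 0.0309), with 5 of 5 Pio mice above the control mean on the control diet and 5 of 5 WT HFD-Pio mice below the WT HFD mean on the HFD. Pex13 had 0.67 (edgeR adjusted p = 0.0313), with 4 of 5 WT Pio mice below the WT control mean and 5 of 5 WT HFD-Pio mice above the WT HFD mean. The same test within KO mice gave 0 members by edgeR, with 3 unadjusted (12.1% of all genes) and 2 without mouse 13 (4.73% of all genes), and 0 by DESeq2 or limma (0% and 0.402% of all genes), where 0% of all genes were called with and 0% without mouse 13.

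The HFD effects of the genotypes differed in 0 members by edgeR without Pio, with 13 at an unadjusted p under 0.05 (9.43% of all genes), while DESeq2 and limma each called 1 lower in KO (0.720% and 1.43% of all genes), where 0.0618% of all genes were called. Without mouse 13 edgeR called 2, where 1.05% of all genes were called. Pex11a had a difference of -0.87, KO minus WT (edgeR adjusted p = 0.0399), with 5 of 5 WT HFD mice above the WT control mean and 3 of 5 KO HFD mice below the KO control mean. For Vnn1 it was -1.63 (edgeR adjusted p = 0.0436), with 5 of 5 WT HFD mice above the WT control mean and 5 of 5 KO HFD mice below the KO control mean. With Pio in both diets the HFD effects gave 0 called members by edgeR, with 10 unadjusted (19.3% of all genes) and 7 without mouse 13 (10.4% of all genes), 0 by DESeq2 and 6 lower by limma (0.855% and 7.53% of all genes), where 0.0155% of all genes were called with and 0.00773% without mouse 13.

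**Figure D3:**
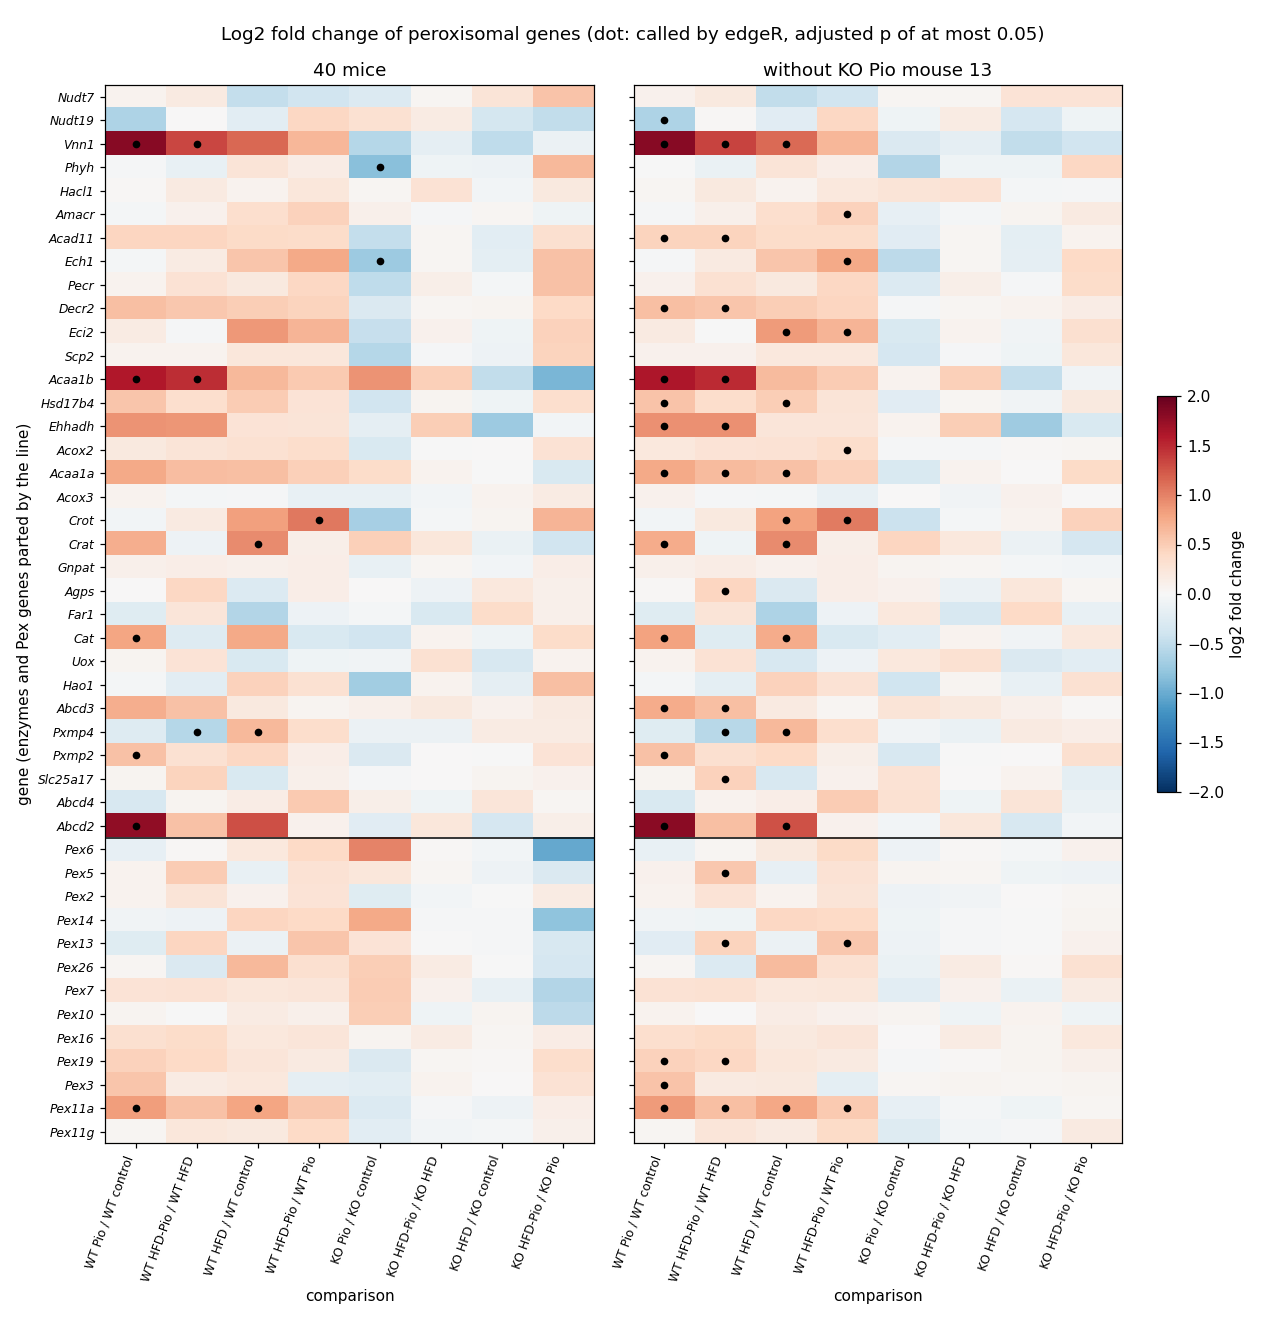
Log2 difference (colour) of the 45 tested members (vertical axis) in the 8 comparisons of 2 groups (horizontal axis), with all 40 mice and without KO Pio mouse 13, and a dot where edgeR called the gene. WT Pio against WT control holds 6 dots with all 40 mice and 16 without mouse 13, and KO Pio against KO control holds 2 and 0.

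Other peroxisomal genes, 29 in all and all tested, were counted beside all genes in the same way. In WT Pio against WT control mice edgeR called 1 (8 without mouse 13), where 3.91% of all genes were called with all 40 mice and 15.5% without mouse 13. This was Mpv17l, a membrane protein linked to reactive oxygen, at 5.87, 5.81, 12.0, 8.79 and 10.4 CPM in the controls and 22.8, 24.7, 22.8, 22.4 and 24.1 CPM with Pio. It rose by 1.45 ± 0.18 (SE) on the log2 scale, with an edgeR adjusted p = 1.53e-06 and 5 of 5 WT Pio mice above the WT control mean. In WT HFD-Pio against WT HFD mice edgeR called 1 higher (4 higher and 1 lower without mouse 13), where 1.08% of all genes were called with all 40 mice and 11.6% without mouse 13. This was Tmem135, at 0.60 on the log2 scale (edgeR adjusted p = 0.0151, 5 of 5 mice). The HFD without Pio raised 3 in WT mice (7 without mouse 13), where 1.31% of all genes were called with all 40 mice and 6.56% without mouse 13. They were Acsl1, an acyl-CoA synthetase, at 1.08 (edgeR adjusted p = 0.0134, 5 of 5 mice), and Slc27a2, which activates very-long-chain acids, at 0.82 (edgeR adjusted p = 0.0102, 5 of 5 mice). The last was the hydroxyacid oxidase Hao2, near the floor of detection at 0.116, 0.0745, 0, 0 and 0 CPM in controls and 0.0458, 0.237, 0.815, 3.75 and 1.08 CPM on the HFD. Hao2 was also higher in WT HFD-Pio than in WT Pio mice, at 1.61 ± 0.653 against 0.185 ± 0.138 CPM, and Mpv17l lower, at -0.87 (edgeR adjusted p = 0.00547, 5 of 5 mice). Those 2 were the calls of that comparison, with 5 higher and 1 lower without mouse 13, where 1.22% of all genes were called with all 40 mice and 8.68% without mouse 13. Over the 40 fits that each left out 1 mouse, Tmem135 was called in 37, lost without WT HFD mouse 829 or WT HFD-Pio mouse 836 or 837, and Slc27a2 in 39, lost without WT HFD mouse 828. Between the diets the Pio effect of WT mice on Mpv17l differed by -1.16 (edgeR adjusted p = 0.0487, 5 of 5 mice above their control mean on the control diet and 4 of 5 WT HFD-Pio mice above the WT HFD mean), a call made in 6 of the 40 fits and the 1 of that test, with 2 without mouse 13 (0.0773% of all genes, 5.16% without mouse 13).

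Among KO mice, the calls of other peroxisomal genes came and went with mouse 13. In KO Pio against KO control mice 2 were called higher and 0 without mouse 13 (9.01% of all genes, 0.510% without mouse 13), with all 40 mice Mpv17l at 0.61 (edgeR adjusted p = 0.0289, 4 of 5 KO Pio mice above the KO control mean) and the thioesterase Acot3, which measured 1.15, 1.19, 199, 3.98 and 2.55 CPM in the KO Pio mice. Its high value is that of mouse 13. In KO HFD-Pio against KO Pio mice 3 were called lower, Acot3, Acot4 and Tysnd1, and 0 without mouse 13 (4.96% of all genes, 0.0927% without mouse 13). KO HFD against KO control mice gave 0 calls by edgeR with 1 at an unadjusted p under 0.05 (1 call without mouse 13, 1 each by DESeq2 and limma), and KO HFD-Pio against KO HFD mice gave 0 with 0 unadjusted, and 0 by DESeq2 or limma. Over all genes 4.60% and 1.04% had such a p in these comparisons. EdgeR called 0.185% and 0.0155% of all genes (0.386% and 0% without mouse 13), DESeq2 0.419% and 0.0633%, and limma 4.19% and 0%. In the test of Pio effects between genotypes on the control diet, Mpv17l (-0.84, edgeR adjusted p = 0.0325, 5 of 5 WT and 4 of 5 KO Pio mice above their control means) and the tether protein Acbd5 (-1.07, edgeR adjusted p = 0.0335, 5 of 5 WT Pio mice above and 5 of 5 KO Pio mice below the KO control mean) were called, 2 in all and 4 without mouse 13, where 7.87% of all genes were called with all 40 mice and 5.70% without mouse 13.

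Mitochondrial fatty acid oxidation takes over the chains that peroxisomes shorten. Of its 17 genes, edgeR called 2 higher with Pio on the control diet in WT mice and 7 without mouse 13 (3.91% of all genes, 15.5% without mouse 13). Cpt1a, the entry step, rose by 0.60 ± 0.16 (SE) on the log2 scale, with an edgeR adjusted p = 0.0274 and 5 of 5 WT Pio mice above the WT control mean, and Eci1, an enoyl-CoA isomerase, by 0.78 (edgeR adjusted p = 0.0422, 5 of 5 mice). With the HFD alone 1 was called and 8 without mouse 13 (1.31% of all genes, 6.56% without mouse 13). The 1 was Cpt1a at 0.63 (edgeR adjusted p = 0.0354, 5 of 5 mice), and with the HFD under Pio 1 was called and 5 without mouse 13 (1.22% of all genes, 8.68% without mouse 13), with all 40 mice Cpt2 at 0.70 (edgeR adjusted p = 0.0195, 5 of 5 mice). WT HFD-Pio against WT HFD mice gave 0 calls by edgeR with 5 unadjusted, 0 by DESeq2 and 6 by limma, and 6 calls by edgeR without mouse 13 (1.08% of all genes, 11.6% without mouse 13). Over all genes 15.6% had an unadjusted p under 0.05 there, and DESeq2 called 2.85% and limma 8.40%. Over the 40 fits without 1 mouse, Eci1 was called in 32, Cpt1a in 36 for Pio and 33 for the HFD, and Cpt2 in 37. KO Pio against KO control mice gave 0 by edgeR with 8 unadjusted (5 without mouse 13), 2 lower by DESeq2 and 0 by limma. Over all genes 27.6% had an unadjusted p under 0.05 there (10.6% without mouse 13), and DESeq2 called 11.3% and limma 9.40%. The 17 genes had a median log2 difference of -0.42 there, with 2 above 0, and of -0.27 without mouse 13. In the test between genotypes on the control diet 6 had a smaller Pio effect in KO mice and 7 without mouse 13 (7.87% of all genes, 5.70% without mouse 13). Among them was Cpt1a at -1.01 (edgeR adjusted p = 0.00765, 5 of 5 WT Pio mice above and 5 of 5 KO Pio mice below the KO control mean), and the lowest difference of the 17 genes was -1.25.

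Of the 6 Cyp4a genes of ω-oxidation, whose dicarboxylic products peroxisomes shorten, 1 was called higher with Pio on the control diet in WT mice and 3 without mouse 13 (3.91% of all genes, 15.5% without mouse 13). With all 40 mice this was Cyp4a32, at 1.33 (edgeR adjusted p = 0.0260, 5 of 5 mice), called in 35 of the 40 fits without 1 mouse. In KO Pio against KO control mice 1 was called lower and 0 without mouse 13 (9.01% of all genes, 0.510% without mouse 13), Cyp4a10 at -1.55 (edgeR adjusted p = 0.0345, 5 of 5 mice). It was also lower in KO HFD than in KO control mice, at -2.67 (edgeR adjusted p = 0.00889, 5 of 5 mice), the 1 call there, with 2 of the 6 called lower without mouse 13 (0.185% of all genes, 0.386% without mouse 13). In KO HFD-Pio against KO HFD mice edgeR called 0 of the 6 with or without mouse 13. In all 40 mice 1 had an unadjusted p under 0.05 there (1.04% of all genes), and the log2 differences of the 6 ran from 0.13 to 1.19. KO control mice spread widely in Cyp4a10, at 97.6, 75.3, 551, 627 and 422 CPM, and Cyp4a copies also share reads. Between genotypes the Pio effect on Cyp4a10 on the control diet differed by -3.03 (edgeR adjusted p = 0.00600, 5 of 5 WT Pio mice above and 5 of 5 KO Pio mice below the KO control mean), and that on Cyp4a32 by -1.62 (edgeR adjusted p = 0.0405, 5 of 5 WT Pio mice above and 3 of 5 KO Pio mice below the KO control mean). These were the 2 of 6 called there, as without mouse 13 (7.87% of all genes, 5.70% without mouse 13). The HFD effect without Pio differed in 1, Cyp4a10, by -4.04 (edgeR adjusted p = 0.00663, 5 of 5 WT HFD mice above and 5 of 5 KO HFD mice below the KO control mean), and in 2 without mouse 13 (0.0618% of all genes, 1.05% without mouse 13).

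Among the 6 receptors and coactivators edgeR called 0 in each of the 4 comparisons within WT mice, with 3 at an unadjusted p under 0.05 for Pio on the control diet, 2 for Pio on the HFD, 3 for the HFD alone and 2 for the HFD under Pio. Over all genes 17.9%, 15.6%, 13.2% and 14.2% had such a p. DESeq2 called 1, 0, 0 and 1 of them, and limma 2, 0, 0 and 5, where DESeq2 called 6.43%, 2.85%, 2.98% and 3.01% and limma 23.9%, 8.40%, 2.53% and 22.7% of all genes. The shares of these 4 comparisons apply to the markers below as well. Without mouse 13 edgeR called 3 (2 higher, 1 lower), 2 (1 higher, 1 lower), 1 lower and 1 lower in the same order, where 15.5%, 11.6%, 6.56% and 8.68% of all genes were called. Ppara, the PPARα gene, measured 75.2, 50.2, 48.5, 74.7 and 107 CPM in WT control mice and 165, 89.5, 92.2, 124 and 118 CPM with Pio. Its difference was 0.73 ± 0.22 (SE) on the log2 scale, with an edgeR adjusted p = 0.0568 and 5 of 5 WT Pio mice above the WT control mean, and it was called without mouse 13 (edgeR adjusted p = 0.0199, 0.74 on the log2 scale, 5 of 5 mice). Pparg had a smaller Pio effect in KO mice on the control diet, at -1.21 for KO minus WT (edgeR adjusted p = 0.0219, 5 of 5 WT Pio mice above and 5 of 5 KO Pio mice below the KO control mean). Ppard and Rxrb were called there with a larger one, at 1.52 and 0.96, and not without mouse 13. Ppard was called higher in KO Pio against KO control mice at 0.96 (edgeR adjusted p = 0.0439, 5 of 5 mice), and not without mouse 13.

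Markers of fat cells moved with Pio in the same WT mice. Of 8 adipocyte markers 4 were tested, and Retn, Cfd and Fabp4, which are also known PPARγ targets, were called higher by edgeR in WT Pio against WT control mice. Without mouse 13 Lipe was called there too. Retn and Cfd were called higher with Pio on the HFD, with and without mouse 13. With the HFD alone Cfd was called higher in WT mice without mouse 13, and not with it. In WT HFD-Pio against WT Pio mice Retn and Fabp4 were called lower without mouse 13, and not with it. The difference of Pio effects on the control diet, KO minus WT, was called lower for Retn, Cfd and Fabp4, and for Retn and Cfd without mouse 13. On the HFD that difference was called lower for Retn and Cfd, with and without mouse 13 (0.0927% of all genes, 0.162% without mouse 13). Lipe was called higher in KO Pio against KO control mice, and not without mouse 13. The 8 markers summed to 23.9, 21.3, 25.4, 31.2 and 27.5 CPM in the WT control mice and to 530, 352, 93.1, 309 and 305 CPM in the WT Pio mice. On the HFD they summed to 27.4, 88.4, 28.7, 35.2 and 32.7 CPM without Pio and to 417, 541, 116, 280 and 298 CPM with it. Every Pio mouse lay above every mouse of its diet without Pio, and Cfd was the most abundant marker in 9 of the 10 mice and Fabp4 in WT Pio mouse 845. The defining markers Adipoq, Lep, Plin1 and Slc7a10 stayed at or below 0.131, 0.152, 0.111 and 0.0679 CPM in every WT mouse. In KO mice the sums ran from 16.8 to 48.9 CPM. Their part in the results on peroxisomal genes was not tested, and these genes answer to PPARγ as well as mark a cell.

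Markers of the other cell types were counted in the 8 comparisons of 2 groups, and calls are also given for the difference of Pio effects between genotypes on the control diet. Of the hepatocyte markers edgeR called 0 in the 4 comparisons within WT mice, with 1, 2, 4 and 0 at an unadjusted p under 0.05 for Pio on the control diet, Pio on the HFD, the HFD alone and the HFD under Pio, while DESeq2 called 0, 1, 3 and 0 and limma 2, 2, 2 and 0. Without mouse 13 edgeR called 0, 2, 4 and 0 of them in the same order, Apoa1 and Serpina1a lower with Pio on the HFD, and Tat, Cyp2e1, Cps1 and Apoa1, 2 higher and 2 lower, with the HFD alone. In KO Pio against KO control mice Apob and Cyp2e1 were called lower, and without mouse 13 edgeR called 0, with 2 at an unadjusted p under 0.05. Cyp2e1 was called higher in KO HFD-Pio against KO Pio mice, and not without mouse 13. In the difference of Pio effects on the control diet, KO minus WT, Cyp2e1 was called lower with and without mouse 13 (7.87% of all genes, 5.70% without mouse 13). Macrophage markers averaged 465 ± 144 CPM in WT control and 361 ± 120.2 CPM in WT Pio mice, and endothelial ones 199.6 ± 35.2 and 213 ± 70.6 CPM. Cholangiocyte markers averaged 56.3 ± 29.8 and 48.4 ± 7.36 CPM, and lymphocyte markers 3.41 ± 1.07 and 3.50 ± 0.431 CPM. In each of these 4 lists edgeR, with or without mouse 13, and limma called 0 markers in the 8 comparisons, with at most 3 at an unadjusted p under 0.05 in a comparison, and DESeq2 called 1, a cholangiocyte marker in KO Pio against KO control mice. Of the stellate markers, at 269 ± 189 and 259 ± 58.5 CPM, edgeR called 0 in WT Pio against WT control mice with 1 at an unadjusted p under 0.05, DESeq2 0 and limma 2, and without mouse 13 edgeR called Lrat. WT control mouse 832 had 606 CPM of them, the highest value of that group. Of the blood markers, at 1044 ± 716 and 662 ± 228 CPM, Alas2 was lower in WT Pio mice, and Hba-a1 and Hba-a2 were higher in KO Pio mice with mouse 13 and not without it. Hba-a1 and Hba-a2 were likewise called higher in that difference of Pio effects, KO minus WT, with mouse 13 and not without it.

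Markers of tissues next to the liver were low in most mice. No muscle marker, 1 of 8 acinar markers and 1 of 7 renal tubule markers passed the filter. Acinar markers reached 682 CPM in KO HFD mouse 10 and 141 CPM in KO Pio mouse 13, against 6.87 ± 3.48 CPM in WT control and 4.49 ± 2.26 CPM in WT Pio mice. Muscle markers reached 26.8 CPM in KO HFD mouse 10, against 0.956 ± 0.212 and 0.965 ± 0.265 CPM, and renal tubule markers averaged 4.09 ± 2.32 and 2.30 ± 1.16 CPM. KO HFD mouse 9 had the highest macrophage sum of its group, 953 CPM. The part of these markers in the results was not tested.

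The promoters of 3 members that Pio raised in WT liver are shown with the stretch most like the element that PPAR and RXR share. The windows run from 250 bases before to 50 bases after the annotated start and come from RefSeq for GRCm38. The search covered 45 windows for 37 of the 46 members. No window was held for Amacr, Vnn1, Crat, Abcd2, Abcd4, Pxmp2, Pex2, Pex19 and Hsd17b4. The motif searched was AGGTCANAGGTCA, with 12 letters compared on both strands, and at most 2 mismatches were found in 2 member windows of 45, those of Cat and Acox2. Over all 32851 windows of that length 3.86% held such a match. Cat lies on chr2:103485104-103485403 (minus strand), with 2 mismatches at bases -204 to -192 from the start. Acaa1b lies on chr9:119157044-119157343 (minus strand), with 4 mismatches at bases -183 to -171 on the opposite strand, and Pex11a on chr7:79743082-79743381 (minus strand), with 5 mismatches at bases -172 to -160. A best match of 4 or fewer mismatches was present in 79.8% of all windows and of 5 or fewer in 99.9%, so the last 2 stretches are no closer to the motif than those of most genes. The sequences read 5′ to 3′ along the gene, with the best match in capitals.
Cat: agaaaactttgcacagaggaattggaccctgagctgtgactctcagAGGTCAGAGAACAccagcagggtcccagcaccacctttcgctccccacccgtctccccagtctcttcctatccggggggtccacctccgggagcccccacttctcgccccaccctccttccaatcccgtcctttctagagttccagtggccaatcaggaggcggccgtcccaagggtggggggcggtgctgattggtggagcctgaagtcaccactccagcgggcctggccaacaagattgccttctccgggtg
Acaa1b: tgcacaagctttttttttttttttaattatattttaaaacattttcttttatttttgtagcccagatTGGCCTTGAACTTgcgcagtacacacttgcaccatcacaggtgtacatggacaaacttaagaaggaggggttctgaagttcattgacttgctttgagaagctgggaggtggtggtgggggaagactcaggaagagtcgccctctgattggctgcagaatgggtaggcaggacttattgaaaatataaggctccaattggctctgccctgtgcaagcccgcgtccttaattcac
Pex11a: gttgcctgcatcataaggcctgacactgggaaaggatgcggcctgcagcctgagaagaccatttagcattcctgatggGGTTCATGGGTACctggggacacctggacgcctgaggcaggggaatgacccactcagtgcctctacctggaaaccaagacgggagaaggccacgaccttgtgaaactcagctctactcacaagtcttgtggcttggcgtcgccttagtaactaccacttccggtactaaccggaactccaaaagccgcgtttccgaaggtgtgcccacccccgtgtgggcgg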

How the data were processed

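Liver poly-A RNA of 40 mice in 8 groups of 5 was sequenced by the authors. Per the labels, the authors aligned reads to GRCm38 with STAR 2.0.4b and assigned reads with a single alignment and no ambiguity to genes with featureCounts 1.4.5. The deposited values are counts per gene for each mouse in 1 table per genotype, and the strand of the counting is not stated. The tables were joined on 40594 genes, after dropping 574 repeated WT and 598 repeated KO lines whose values did not differ. Removing 355 ribosomal RNA genes and 27297 genes without at least 1 CPM in at least 5 mice left 12942. EdgeR 4.0.16 (R 4.3.3) fitted a mean for each of the 8 groups over all 40 mice with TMM factors and robust quasi-likelihood tests, which are two-sided. P values were adjusted by Benjamini-Hochberg over all genes tested and genes were called where it was 0.05 or lower. Recovery of added effects was tested on simulated data. Alternatives were DESeq2 1.42.0, limma 3.58.1 with sample weights, RLE factors, no filter on low counts, each genotype fitted alone and leaving out each mouse. Leaving out the 4 mice that stand apart (over 5% of genes more than 1 log2 unit from the median of their group's other mice), and fitting KO mice alone without mouse 13, were chosen after seeing the data. Tables and plots used Python 3.11.15 with pandas 2.3.3, numpy 2.4.6 and matplotlib 3.10.9.

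Genes were named by rule. In each comparison of 2 groups all called members were named where 12 or fewer, otherwise the 12 with the smallest p, with the rest given by count and range. Values of every mouse were given for the 3 called members with the smallest p per comparison, and in WT mice for Ehhadh, Acaa1b, Cat, Vnn1 and Pex11a. All members called in a difference of effects were named where 12 or fewer, and up to 3 called genes per comparison of the other gene lists. The members, lists and this rule were chosen with earlier results of these data known. Marker lists were hepatocyte, adipocyte, macrophage, endothelial, stellate, cholangiocyte, lymphocyte, blood, muscle, acinar and renal tubule. Proteins, histology and metabolites were not analysed here.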

Additional observations from a re-analysis of the deposited data

Results flagged for a closer look

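Single values were compared with the rest of their group of 5 for 13 genes and for the sums over enzymes and Pex genes, 120 group values in all. In 18 of them 1 mouse lay far from the other 4 for the width of the group, where chance gives about 1 in 20. KO Pio mouse 13 gave 3 of these, with Acaa1b at 1873 CPM, Ehhadh at 72.9 CPM and a Pex sum of 1630.0 CPM. KO HFD mouse 9 gave 7, with Acaa1b at 58.8 CPM, Cat at 1857 CPM, Ech1 at 114 CPM, Ehhadh at 100.4 CPM, Hsd17b4 at 293 CPM, an enzyme sum of 10050.0 CPM and a Pex sum of 500.1 CPM. KO Pio mouse 12 had Abcd2 at 22.8 CPM and Pxmp2 at 39.1 CPM. WT HFD mouse 829 had Crat at 223 CPM and Pex11a at 80.8 CPM. The others were Crat at 146 CPM in WT control mouse 831, Pxmp2 at 17.7 CPM in WT control mouse 832, Pex11a at 86.4 CPM in KO control mouse 4 and Vnn1 at 8.37 CPM in KO HFD-Pio mouse 16. The cause of these values was not tested.

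The effect of Pio on the control diet differed between the genotypes in 6 members by the test of the difference itself, where 7.87% of all genes were called. Without mouse 13 it differed in 10 members, where 5.70% of all genes were called. On the log2 scale, KO minus WT, it was -2.39 for Vnn1, -2.01 for Abcd2, -1.17 for Cat, -1.10 for Pex11a, -0.94 for Hsd17b4 and -0.86 for Pxmp2. Genotype and count table cannot be told apart in the group levels. These differences compare effects measured within each table, and in them too genotype cannot be told apart from breeding and processing.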

How the results depend on the processing

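The counts of called genes depended on the tool and on the mice in the fit, and 0 of the 70 results of single genes followed here reversed under the alternatives tried. Directions outside those 70 did turn, and without mouse 13 the sign changed for 16 of 45 members in KO Pio against KO control mice. For example, Pex6 went from 0.99 to -0.11 on the log2 scale, Pex7 from 0.51 to -0.21, Pex14 from 0.75 to -0.08 and Acot3, called with all 40 mice, from 4.00 to -0.21. Counts are those called by edgeR with all 40 mice unless an alternative is named. Of 109 counts recomputed without leaving out single mice, 72 stayed within 1.5 times the reported count and 37 did not. Of 410 values of single genes under the same alternatives 294 kept their side of the threshold, 100 came to pass it and 16 no longer passed it.

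For the enzymes in WT Pio against WT control mice 5 were called, and 9 by DESeq2, 13 by limma, 8 with RLE factors, 3 without a filter on low counts, 11 with WT mice fitted alone and 15 without the 4 mice that stand apart. In WT HFD-Pio against WT HFD mice 3 were called, and 8 by limma, 0 without a filter and 8 without the 4 mice. In WT HFD against WT control mice 2 were called, and 7 by DESeq2, 6 by limma, 0 without a filter, 6 with WT mice alone and 4 without the 4 mice. In WT HFD-Pio against WT Pio mice 1 was called, and 2 by DESeq2, 14 by limma, 2 with WT mice alone and 10 without the 4 mice. In KO Pio against KO control mice 2 were called, and 5 by limma, 1 without a filter, 0 with KO mice alone, and 0 with KO mice alone and mouse 13 left out. In these 5 comparisons DESeq2 called 6.43%, 2.85%, 2.98%, 3.01% and 11.3% of all genes, limma 23.9%, 8.40%, 2.53%, 22.7% and 9.40% and edgeR without the 4 mice 21.1%, 9.14%, 3.64%, 16.8% and 2.09%. With RLE factors 4.06%, 1.04%, 1.30%, 1.46% and 10.3% were called, and without a filter 1.13%, 0.251%, 0.363%, 0.309% and 2.94% of 27839 genes. With each genotype alone the shares were 7.16%, 1.07%, 2.63%, 1.56% and 0%, and 2.23% with KO mice alone and mouse 13 left out. The same shares apply to the Pex genes below.

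For the Pex genes in WT Pio against WT control mice 1 was called, and 4 by limma, 2 with WT mice alone and 4 without the 4 mice. Elsewhere 0 became 1 by DESeq2, 4 by limma and 3 without the 4 mice in WT HFD-Pio against WT HFD, and 1 by DESeq2, 8 by limma and 4 without the 4 mice in WT HFD-Pio against WT Pio. In KO Pio against KO control 0 became 1 by DESeq2 and 1 with RLE factors, and in KO HFD-Pio against KO Pio 1 by DESeq2. The 6 calls in differences of effects, counted over all the differences tested, became 10 by DESeq2, 32 by limma and 16 without the 4 mice. For the Pio effects between genotypes on the control diet, these settings called 11.0%, 15.4% and 9.68% of all genes. In each other difference of effects they called at most 1.07%, 10.6% and 5.15%. The cause of these changes was not tested. Choices that were made after seeing the data are the 4 mice left out and KO mice alone without mouse 13.

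Leaving out each of the 40 mice in turn gave 3 to 13 called enzymes in WT Pio against WT control, 0 to 10 in WT HFD-Pio against WT HFD, 0 to 9 in WT HFD against WT control and 0 to 5 in WT HFD-Pio against WT Pio. In the KO comparisons in the same order it gave 0 to 5, 0 to 0, 0 to 0 and 0 to 3. Called Pex genes were 1 to 3, 0 to 4, 1 to 1 and 0 to 3 in WT mice and 0 to 3, 0 to 0, 0 to 0 and 0 to 3 in KO mice, and differences of effects 5 to 14. Without mouse 13 the enzymes called were 13, 10, 9 and 5 in the WT comparisons and 0 in KO Pio against KO control, and 14 differences of effects were called. Of 2800 values of single genes over these fits 2588 kept their side of the threshold, 81 came to pass it and 131 no longer passed it. Depth differs by up to 3.16 times between WT mice and 1.31 times between KO mice, and some members, such as Far1 and Abcd2, have few counts.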
